A study of Homo sapiens with 9 samples.

Results

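The genes described here encode the subunits of the nuclear RNA polymerases I, II and III (Pol I, Pol II and Pol III). They were taken as the protein-coding genes whose symbol begins with POLR1, POLR2 or POLR3. This gave 34 gene records with 33 symbols, since POLR2J3 has 2 records, among 58425 annotated genes that matched the deposited tables. All 34 passed the filter on low counts, together with 18444 genes in all. Their nuclear RNA was measured in U2OS, a cell line from a human osteosarcoma. The cells had received 15 nM siRNA 48 hours earlier, which targeted dyskerin in the siDyskerin group, GAR1 in the siGAR1 group and served as a control in siControl. Each group had 3 biological replicates, giving 9 RNA-seq libraries. The knockdowns are transient, and none of the groups carries a stable deletion. The paper lists the control siRNA from another supplier (Qiagen) than the siRNAs against dyskerin and GAR1 (Dharmacon). Effects of the siRNAs other than on their targets were not tested.

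Pol I makes the precursor of the large ribosomal RNAs in the nucleolus, Pol II makes mRNAs and many noncoding RNAs, and Pol III makes tRNAs and other small RNAs. Each enzyme is built around its own pair of large catalytic subunits, and smaller subunits are either particular to an enzyme, common to Pol I and Pol III, or common to all of them. Dyskerin, encoded by DKC1, is the pseudouridine synthase of the H/ACA complex, which modifies RNAs including the ribosomal RNA that Pol I transcribes, and GAR1 is another core protein of that complex. By these roles 6 members belong to Pol I (POLR1A, POLR1B, POLR1E, POLR1F, POLR1G and POLR1H) and 2 are shared by Pol I and Pol III (POLR1C and POLR1D). Pol II has 11 records (POLR2A, POLR2B, POLR2C, POLR2D, POLR2G, POLR2I, POLR2J, POLR2J2, both of POLR2J3, and POLR2M). A further 5 subunits are shared by all 3 enzymes (POLR2E, POLR2F, POLR2H, POLR2K and POLR2L), and 10 belong to Pol III, among them POLR3A, POLR3B, POLR3C, POLR3D, POLR3E, POLR3F, POLR3G, POLR3GL and POLR3K.

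Summed over transcripts, the libraries held 48838756 to 90698675 estimated reads, in which a read that fits several transcripts appears to count more than once. DKC1 fell by 2.79 on the log2 scale in siDyskerin and GAR1 fell by 2.68 in siGAR1, each against siControl. Of 8 bone and mesenchymal markers 6 passed the filter, with COL1A2 and SP7 below it and BGLAP at 1.23 to 17.3 normalized counts. Their summed counts, most of them from VIM, were 216013 to 244556 in siControl, 195366 to 213400 in siDyskerin and 200059 to 215220 in siGAR1, and SPP1 was at 503 to 673, 1566 to 1840 and 696 to 765. Of 6 epithelial markers 5 passed it, and their summed counts, almost all from KRT8 and KRT18, were 52007 to 59778 in siControl, 78130 to 79005 in siDyskerin and 64794 to 77527 in siGAR1, while ESRP1 was at 0 to 19.2 and KRT19 was below the filter. The 13 mitochondrially encoded mRNAs, a sign of RNA from outside the nucleus, took 0.0978 to 0.111% of these sums in siControl, 0.0839 to 0.0966% in siDyskerin and 0.103 to 0.122% in siGAR1. The part of these differences in the results below was not tested.

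Silencing of dyskerin or GAR1 left the mRNAs of most polymerase subunits close to their level in siControl. After knockdown of dyskerin 1 member of 34 (POLR1F) rose and 1 (POLR2H) fell, at a Benjamini-Hochberg adjusted p under 0.01 from edgeR's quasi-likelihood test over all genes ("passed"). This is 2.94% of the members in each direction, beside 3.08% of all genes tested that passed higher and 3.32% that passed lower. The share of members was near the background at this threshold. With an unadjusted p under 0.05, 1 member was higher and 2 were lower, a smaller share than the 26.1% of all genes in either direction. After knockdown of GAR1 no member passed with this test, beside 1.63% of genes that passed higher and 1.79% lower, and DESeq2 passed 2 (POLR1F and POLR1G). The shares of all genes that passed, here and below, are from the edgeR fit. None was counted with DESeq2, so the DESeq2 counts have no matching share. At an unadjusted p under 0.05, 3 of the 34 were higher and 2 lower, beside 11.8% and 12.2% of all genes. Between the knockdowns only POLR2H passed, lower in siDyskerin than in siGAR1, beside 2.61% of genes that passed higher and 2.78% lower. No member in any comparison moved by more than 1 on the log2 scale, a change that 0.938% of genes showed together with an adjusted p under 0.01 after dyskerin knockdown, 0.282% after GAR1 knockdown and 0.721% between the knockdowns. The median log2 fold change of the members was 0.02 after either knockdown, and that of all genes tested was 0.00 and 0.01. The log2 fold change lay within 0.2 of zero for 31 of the 34 members after dyskerin knockdown and for 28 after GAR1 knockdown, beside 57.2% and 57.6% of all genes tested, which include many with fewer reads.

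**Figure D1:**
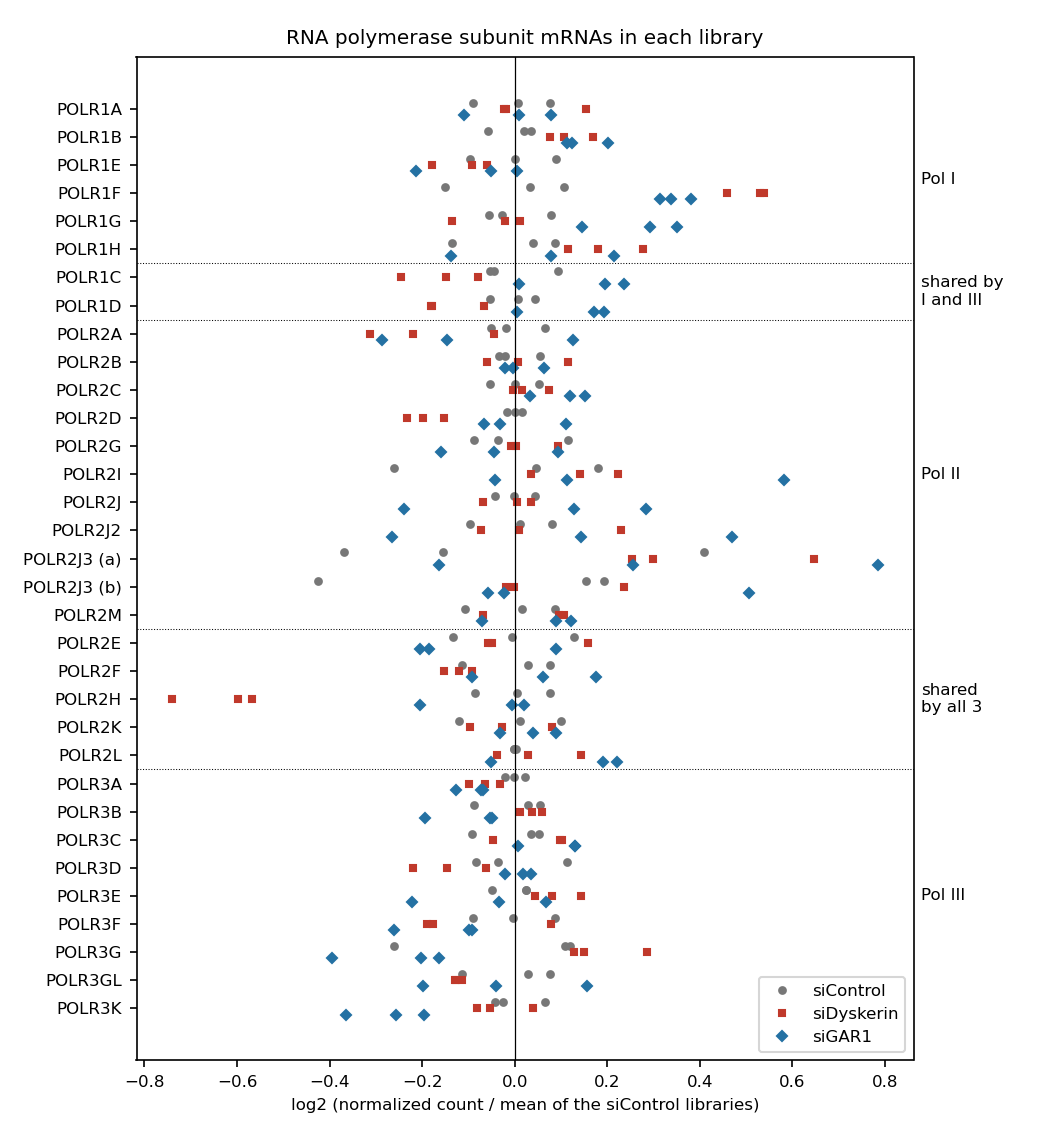
Normalized count of 33 of the 34 polymerase subunit records in each of the 9 libraries, as the log2 ratio to the mean of the 3 siControl libraries (x axis), with genes on the y axis grouped by polymerase and the 2 records of POLR2J3 marked a and b. The siDyskerin points of POLR2H stand to the left of all others and those of POLR1F to the right of the siControl points, while most rows overlap.

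POLR2H (ENSG00000163882.10; GRCh38 chromosome 3, 184361710 to 184368596, plus strand) encodes a small subunit that all 3 polymerases contain, and it was the member with the largest change. Its normalized counts, which are reads scaled to the mean library, were 9222, 8783 and 8249 in the siControl libraries. They were 5908, 5785 and 5236 in siDyskerin and 8712, 8880 and 7591 in siGAR1. Every siDyskerin library was below every library of the other groups, while the siGAR1 and siControl libraries overlapped. The means were 8751 ± 487 in siControl, 5643 ± 357 in siDyskerin and 8394 ± 701 in siGAR1 (SD, n = 3). Knockdown of dyskerin gave a log2 fold change of -0.63 (standard error 0.08, edgeR adjusted p = 1.0e-04) and knockdown of GAR1 one of -0.06 (standard error 0.08, adjusted p = 0.68). The direct comparison of siDyskerin with siGAR1 gave -0.57 (standard error 0.08, adjusted p = 3.1e-04), so the difference between the knockdowns passed its own test. Both comparisons with siDyskerin passed in all 19 settings tried. In bulk RNA, fewer cells that express a gene and less of its RNA per cell cannot be told apart.

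POLR1F (ENSG00000105849.6; GRCh38 chromosome 7, 19695461 to 19709037, minus strand) encodes a subunit of the Pol I stalk and was the only member that rose. Its normalized counts were 1267, 1513 and 1438 in siControl, 1932, 2043 and 2029 in siDyskerin, and 1778, 1832 and 1749 in siGAR1. All 6 knockdown libraries were above all siControl libraries, and the siDyskerin libraries were also above those of siGAR1. Knockdown of dyskerin gave a log2 fold change of 0.51 (standard error 0.08, edgeR adjusted p = 6.3e-04). After GAR1 knockdown it was 0.35 (standard error 0.08), which missed the threshold with edgeR (adjusted p = 0.014) and passed with DESeq2 (adjusted p = 8.3e-04). The knockdowns differed by 0.16 on the log2 scale (standard error 0.08, edgeR adjusted p = 0.21), and this difference did not pass. The gene hosts the microRNA MIR3146.

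**Figure D2:**
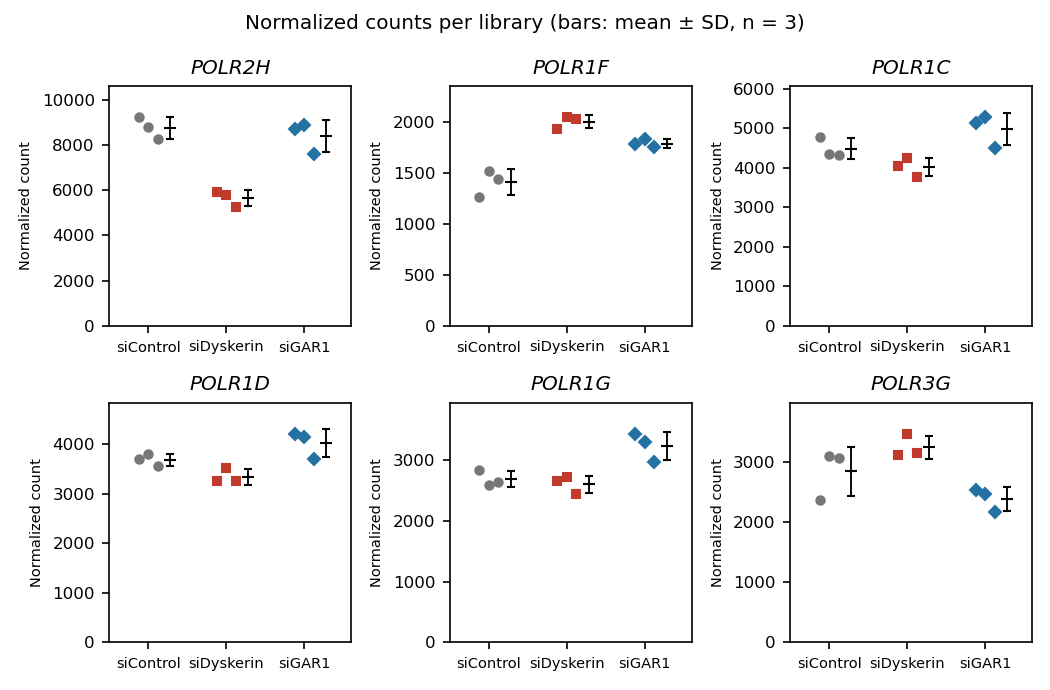
Normalized counts (y axis, from 0) of the members with an adjusted p under 0.05 in at least 1 comparison, by group (x axis), with 1 point per library and bars for the mean ± SD of 3 libraries. POLR2H was at 5236 to 5908 in siDyskerin against 7591 to 9222 elsewhere, and POLR1C, POLR1D and POLR1G were at their highest means and POLR3G at its lowest in siGAR1.

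Bases upstream of the start of both genes are shown because these are the members whose mRNA changed. They were read from RefSeq promoter windows on GRCh38.p14, in which 24 of the 33 symbols had an entry. Capitals mark the GC box letters GGGCGG and the core letters of the NRF1 motif, GCATGCG, searched on both strands, which overlap each other in this palindromic motif. POLR2H has a start 59 bases from that of CLCN2, which runs the opposite way, and a second start further downstream, of which only the last 30 bases are given.
POLR2H, chr3:184361651-184361709, plus strand: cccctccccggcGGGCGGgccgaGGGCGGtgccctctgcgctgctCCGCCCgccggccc
POLR2H second start, chr3:184363331-184363360, plus strand: cgcgttaccgcttgtttgtgCGCATGCGcc
POLR1F, chr7:19709038-19709137, minus strand: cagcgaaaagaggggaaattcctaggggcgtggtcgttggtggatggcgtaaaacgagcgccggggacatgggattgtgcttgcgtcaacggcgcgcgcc
Over the 250 bases before the listed starts, the NRF1 letters occurred in 4 of the 24 members (POLR2F, POLR2H, POLR2J2 and POLR3B) and in 4.16% of 27305 genes. The GC box letters occurred in 16 members and in 46.2% of genes, and the ETS letters CCGGAAG in 7 members and in 10.2% of genes. The letters CCAAT were found in 6 members and 37.0% of genes, and TATAAA in 1 member, POLR2M, and 13.1% of genes. In this window of POLR1F none of these letters was found. POLR2F and POLR3B, which share the NRF1 letters with POLR2H, had log2 fold changes of -0.12 and 0.04 after dyskerin knockdown and did not pass (edgeR adjusted p = 0.34 and 0.81). CLCN2, which shares the interval with POLR2H, had a log2 fold change of -0.05 after dyskerin knockdown (edgeR adjusted p = 0.84). Among all members, 13 had a neighbour within 1 kb that starts head to head with them. Of the 12 such neighbours tested, 1 passed after dyskerin knockdown, beside 3.08% of all genes that passed higher and 3.32% lower. In the other comparisons 0 passed, beside 1.63% and 1.79% of all genes after GAR1 knockdown and 2.61% and 2.78% between the knockdowns. The neighbour that passed was ZBTB4, beside POLR2A, with a log2 fold change of 0.41 (edgeR adjusted p = 0.00385).

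Among the other Pol I subunits, none passed in the main edgeR fit in any comparison, and DESeq2 passed only POLR1G. POLR1A, the largest catalytic subunit, had normalized counts of 12386, 11034 and 11809 in siControl, 13077, 11557 and 11584 in siDyskerin, and 12399, 11816 and 10892 in siGAR1. Its groups overlapped throughout, with log2 fold changes of 0.04 and 0.00 (standard error 0.07) after the knockdown of dyskerin and GAR1. POLR1B, the second catalytic subunit, stood at 0.12 and 0.15 (standard error 0.06), and the latter reached an unadjusted p of 0.022 with edgeR (adjusted p = 0.13). POLR1E, a partner of POLR1G in a Pol I-specific subcomplex, stood at -0.11 and -0.08, and POLR1H, a small zinc-binding subunit, at 0.19 and 0.06.

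POLR1G is the subunit that pairs with POLR1E. Its normalized counts were 2844, 2593 and 2645 in siControl, 2655, 2717 and 2451 in siDyskerin, and 3436, 3302 and 2979 in siGAR1. The siGAR1 libraries were above all others, and the siControl and siDyskerin libraries overlapped. The log2 fold change was -0.05 after dyskerin knockdown and 0.27 after GAR1 knockdown (edgeR adjusted p = 0.042), and siDyskerin was lower than siGAR1 by -0.31 (standard error 0.08, adjusted p = 0.015), which missed the threshold of 0.01. This difference passed with edgeR without the filter, with the reference transcript only, with a replicate block and without siGAR1 replicate 3. POLR1G overlaps ERCC1 on the opposite strand, whose log2 difference between siDyskerin and siGAR1 was 0.29 (edgeR adjusted p = 0.018). The libraries and their quantification kept the strand of the reads.

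The pair of subunits shared by Pol I and Pol III form the assembly platform of these enzymes. The gene sums of both stood on opposite sides of siControl in the knockdowns without passing. POLR1C had normalized counts of 4782, 4341 and 4313 in siControl, 4038, 4241 and 3775 in siDyskerin, and 5125, 5276 and 4510 in siGAR1. The siDyskerin libraries were below all others, and 1 siGAR1 library lay within the siControl range. Its log2 difference between siDyskerin and siGAR1 was -0.31 (standard error 0.08, edgeR adjusted p = 0.019). POLR1D had 3700, 3799 and 3553 in siControl, 3252, 3517 and 3254 in siDyskerin, and 4213, 4151 and 3698 in siGAR1. Its siDyskerin libraries were below all others, and its log2 difference from siGAR1 was -0.27 (standard error 0.07, edgeR adjusted p = 0.025), or -0.13 with length-scaled TPM counts (adjusted p = 0.37). With only its reference transcript counted, this difference was 0.10 (edgeR adjusted p = 0.44). Without siGAR1 replicate 3, POLR1C (-0.37), POLR1D (-0.33) and POLR1G (-0.37) passed beside POLR2H, and DESeq2 passed these 3 and POLR3G on all libraries.

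**Figure D3:**
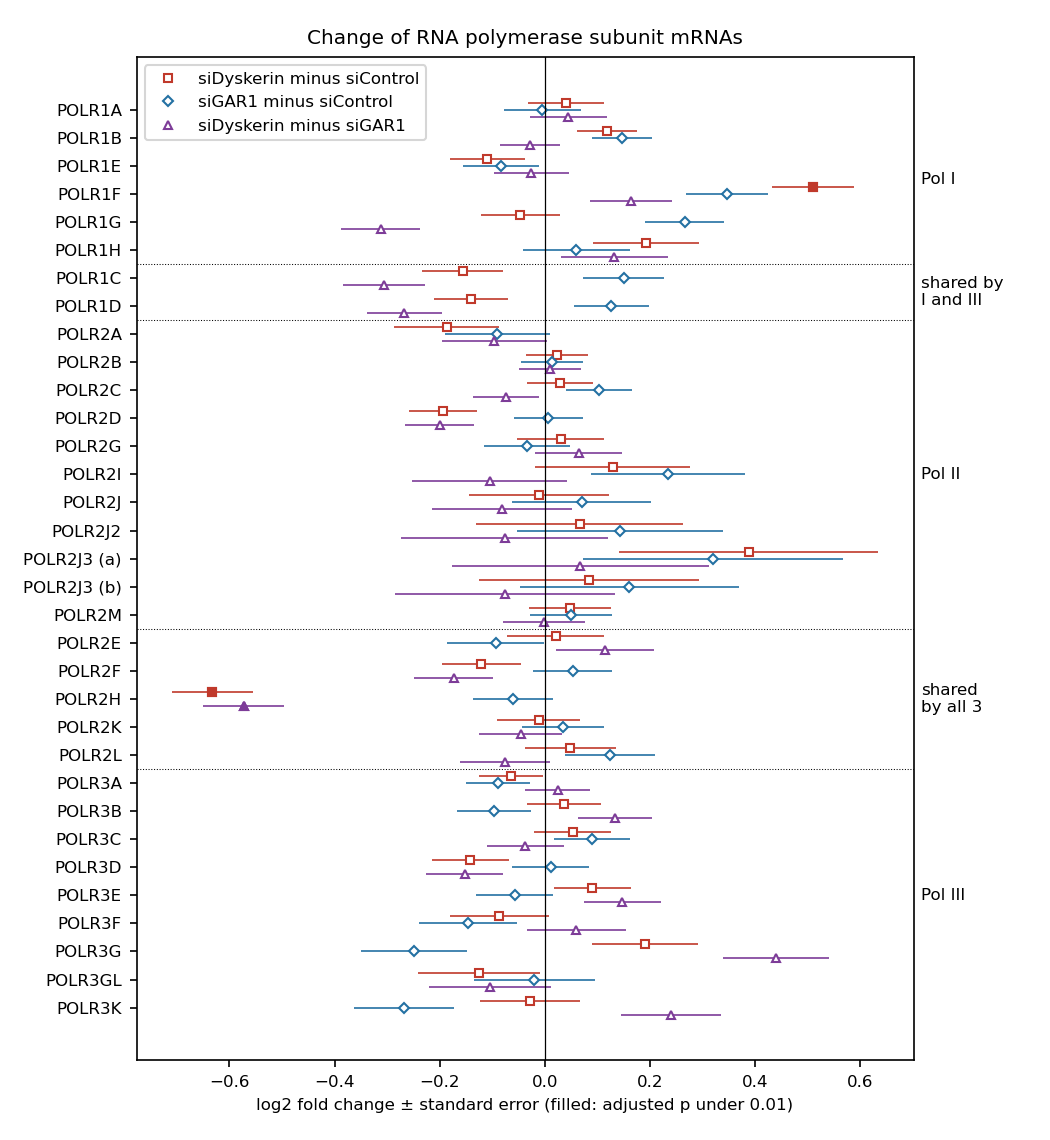
Log2 fold change and standard error (x axis) of 33 of the 34 polymerase subunit records (y axis, grouped by polymerase) in the 3 comparisons, from the edgeR fit, with filled symbols for an adjusted p under 0.01. The 3 filled symbols are POLR1F after dyskerin knockdown at 0.51 and POLR2H at -0.63 and -0.57, and both knockdown comparisons share the siControl libraries.

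The gene sum of POLR1D hid different values of its transcripts. The transcripts POLR1D-201 and POLR1D-203 share their first coding exon and then splice to different exons, and their junctions on chromosome 13 are shown because the transcripts of the second kind differed between the knockdowns. The shared 15 bases end at position 27622009 (GRCh38), and the capitals, which begin at 27622875 for POLR1D-201 and at 27648379 for POLR1D-203, mark the bases that distinguish them. The bases come from the GENCODE 44 transcripts.
POLR1D-201: tcaggagctggagagAAAAATATCTGGATT
POLR1D-203: tcaggagctggagagGAAAGCAATAGAAGA
POLR1D-201 codes for 133 residues and is the reference transcript chosen by the MANE project, and POLR1D-203 codes for 122. Their coding sequences differ after the shared exon, and whether the product of POLR1D-203 serves as the polymerase subunit was not tested. POLR1D-201 had 921, 967 and 946 normalized counts in siControl, 874, 978 and 923 in siDyskerin, and 912, 868 and 793 in siGAR1. POLR1D-203 had 364, 375 and 353 in siControl, 321, 330 and 300 in siDyskerin, and 447, 460 and 411 in siGAR1. For POLR1D-201 the siDyskerin libraries overlapped both other groups and those of siGAR1 were just below siControl, whereas for POLR1D-203 the groups were fully separated. Between siDyskerin and siGAR1 the log2 difference of POLR1D-203 was -0.47 (standard error 0.09, edgeR adjusted p = 5.0e-04 over all transcripts) and that of POLR1D-201 was 0.11 (adjusted p = 0.43). The log2 ratio of POLR1D-203 to POLR1D-201 was -1.38 ± 0.04 in siControl, -1.55 ± 0.09 in siDyskerin and -0.96 ± 0.06 in siGAR1 (SD, n = 3). The 3 groups did not overlap in this ratio, and the two-sided exact permutation test gave p = 0.10 in each comparison (0.10 also after adjustment over the 3), the smallest value that 3 against 3 libraries allow. This ratio was chosen after the transcript values had been seen. A read appears to count in every transcript it fits, so reads of the shared exon would enter both counts. The size of the ratio is therefore not that of the 2 RNAs themselves.

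Across members, 239 annotated transcripts were tested. After dyskerin knockdown 12 of them passed, 2 higher and 10 lower, beside 6.58% of all transcripts tested. The 2 were both transcripts of POLR1F, and the 10 all belonged to POLR2H. After GAR1 knockdown 3 passed, all higher, beside 4.12% of all transcripts, namely POLR1D-212 (0.37, edgeR adjusted p = 0.0092), POLR1F-201 (0.35, adjusted p = 0.0026) and POLR1G-204 (0.36, adjusted p = 0.0099). Between the knockdowns 24 passed, beside 5.54% of all transcripts, with 22 lower in siDyskerin (10 of POLR2H, 7 of POLR1D, 3 of POLR1C and 2 of POLR1G) and 2 higher (POLR3G). Transcripts of 1 gene share reads and are not independent counts.

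All 13 tested transcripts of POLR2H were below siControl after dyskerin knockdown, at log2 fold changes from -0.74 to -0.27. The reference transcript POLR2H-208 fell by 0.63 (standard error 0.07, edgeR adjusted p = 4.0e-07). Transcripts annotated as retaining an intron fell to a similar extent, by 0.74 for POLR2H-212 (standard error 0.11, edgeR adjusted p = 1.1e-05) and by 0.59 for POLR2H-211 (standard error 0.09, edgeR adjusted p = 2.0e-05). Those that did not pass were the low or short POLR2H-201 (-0.55), POLR2H-209 (-0.35) and POLR2H-213 (-0.27). Both transcripts of POLR1F rose, POLR1F-201 by 0.51 and the intron-retaining POLR1F-202 by 0.57 (edgeR adjusted p = 1.1e-05 and 7.7e-04). A read appears to count in every transcript it fits, so these values cannot separate intron-retaining RNA from spliced mRNA of the same gene.

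**Figure D4:**
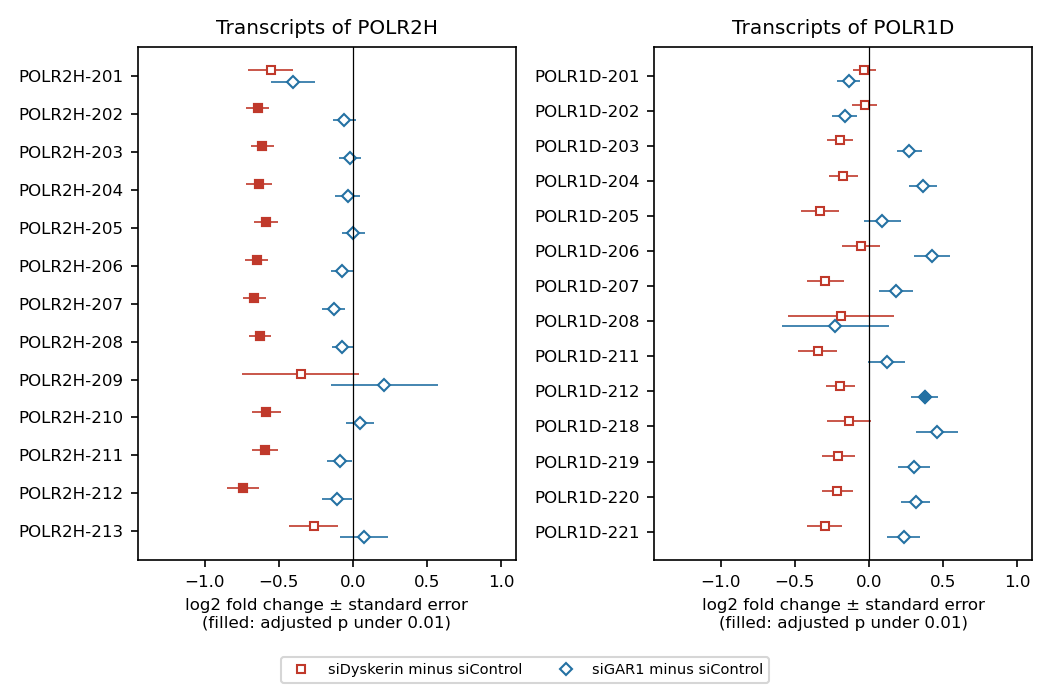
Log2 fold change and standard error (x axis) of the tested transcripts of POLR2H (left, 13) and POLR1D (right, 14) after each knockdown, with filled symbols for an adjusted p under 0.01 over all transcripts. In POLR2H the dyskerin values lay between -0.74 and -0.27 for all transcripts, and in POLR1D all except POLR1D-201, POLR1D-202 and POLR1D-208 were above zero after GAR1 knockdown.

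No subunit that belongs to Pol II alone passed with edgeR or DESeq2 in any comparison. POLR2A, the largest subunit, whose carboxy-terminal domain coordinates RNA processing, had normalized counts of 3316, 3241 and 3516 in siControl, 3257, 2885 and 2702 in siDyskerin, and 3664, 3035 and 2752 in siGAR1. The groups overlapped, with log2 fold changes of -0.19 and -0.09 (standard error 0.10) after the knockdown of dyskerin and GAR1. POLR2B, the second catalytic subunit, stood at 33200 ± 1106, 33732 ± 2058 and 33513 ± 1033 normalized counts in siControl, siDyskerin and siGAR1 (SD, n = 3), and its log2 fold changes were 0.02 and 0.01 (standard error 0.06).

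Only POLR2D, a subunit of the Pol II stalk, was past an unadjusted p of 0.05 among Pol II subunits. It stood at 5127 ± 60 normalized counts in siControl, 4483 ± 127 in siDyskerin and 5150 ± 344 in siGAR1 (SD, n = 3), with a log2 fold change of -0.19 after dyskerin knockdown (standard error 0.07, edgeR adjusted p = 0.068). POLR2G, its partner in the stalk, stood at 0.03 and -0.03 after the knockdowns of dyskerin and GAR1. POLR2C, part of the assembly platform of Pol II, stood at 0.03 and 0.10, the transcript cleavage subunit POLR2I at 0.13 and 0.23, and POLR2M, a Pol II-associated protein whose locus overlaps GCOM1 on the same strand, at 0.05 in both. POLR2J, the platform partner of POLR2C, stood at -0.01 and 0.07. It has the near copies POLR2J2 and POLR2J3, among which reads cannot be assigned with certainty. POLR2J2 stood at 0.07 and 0.14 and the POLR2J3 records at 0.39 and 0.32 and at 0.08 and 0.16, with standard errors of 0.20 to 0.25 that exceed those of all other members.

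The other subunits that all 3 enzymes share did not follow POLR2H. POLR2E had log2 fold changes of 0.02 and -0.09 after the knockdowns of dyskerin and GAR1, POLR2K of -0.01 and 0.03, and POLR2L of 0.05 and 0.12, with standard errors of 0.08 to 0.09. POLR2F stood at -0.12 and 0.05 (standard error 0.08), and its log2 difference between siDyskerin and siGAR1 of -0.17 had an unadjusted p of 0.037 (edgeR adjusted p = 0.16).

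No subunit particular to Pol III passed in the main edgeR fit in any comparison, and DESeq2 passed only POLR3G, between the knockdowns. POLR3A, the largest catalytic subunit, had normalized counts of 3299, 3242 and 3197 in siControl, 3174, 3105 and 3032 in siDyskerin, and 3098, 3085 and 2973 in siGAR1. Both knockdowns lay below all siControl libraries, but by only -0.06 and -0.09 on the log2 scale (standard error 0.06, edgeR adjusted p = 0.57 and 0.41). POLR3B, the second catalytic subunit, stood at 0.04 and -0.10. Of the subunits that take part in initiation, POLR3C stood at 0.05 and 0.09 and POLR3F at -0.09 and -0.15. POLR3D and POLR3E, which form another subcomplex, stood at -0.14 and 0.01 and at 0.09 and -0.06. POLR3K, which acts in termination and RNA cleavage, stood at -0.03 and -0.27. The latter value had an unadjusted p of 0.014 (edgeR adjusted p = 0.098).

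POLR3G and POLR3GL are paralogs that take the same place in Pol III and so define alternative forms of the enzyme. POLR3G had normalized counts of 2375, 3092 and 3068 in siControl, 3109, 3468 and 3155 in siDyskerin, and 2539, 2472 and 2162 in siGAR1. All siDyskerin libraries were above all others, and siControl overlapped siGAR1 only through siControl replicate 1, at 2375. The log2 difference between siDyskerin and siGAR1 was 0.44 (standard error 0.10, edgeR adjusted p = 0.012), which missed the threshold, and without siControl replicate 1 it passed at 0.44 (adjusted p = 0.0024). This difference also passed with edgeR without the filter, with protein-coding transcripts only and with the compared groups only. Against siControl the log2 fold changes of POLR3G were 0.19 and -0.25, and neither passed (edgeR adjusted p = 0.25 and 0.15). POLR3GL had 338, 349 and 306 normalized counts in siControl, 306, 303 and 303 in siDyskerin, and 322, 369 and 289 in siGAR1, with log2 fold changes of -0.13 and -0.02 (standard error 0.12).

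Levels can be compared between genes only per length, so 1 transcript per gene, the reference one where the tables hold it, was expressed as reads per kilobase of effective length, scaled to library depth (RPKM). In siControl POLR1E was highest at 30.3 ± 1.5, followed by POLR2K at 27.1 ± 1.8 and POLR2B at 23.0 ± 0.4 (SD, n = 3). The libraries of POLR1E were just above those of POLR2K, and in 23 of the 33 neighbouring pairs of this order the siControl libraries overlapped. The subunits of all 3 enzymes ranged from 7.65 to 27.1 (median 14.7), those of Pol I from 3.68 to 30.3 (median 5.69), those of Pol II from 0 to 23.0 (median 4.42) and those of Pol III from 1.31 to 7.27 (median 4.46), while POLR1C and POLR1D were at 6.84 and 14.5. The classes overlapped, and the difference between them was not tested. POLR2A was at 3.67 ± 0.26 and POLR3A at 4.71 ± 0.09. POLR3G was at 6.46 ± 0.85 and its paralog POLR3GL at 1.31 ± 0.08, with no overlap between them. POLR2J3 was lowest at 0.30 ± 0.10, and the reference transcript of its other record was listed at 0. For POLR2A, POLR3G and POLR1C the transcript with most reads was taken, which is annotated as retaining an intron in POLR1C and as subject to nonsense-mediated decay in POLR3G. A read that fits several transcripts appears to be counted in each. This would raise both the reads of a transcript and the library depth used for scaling. Whether these levels are too high or too low was not tested.

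**Figure D5:**
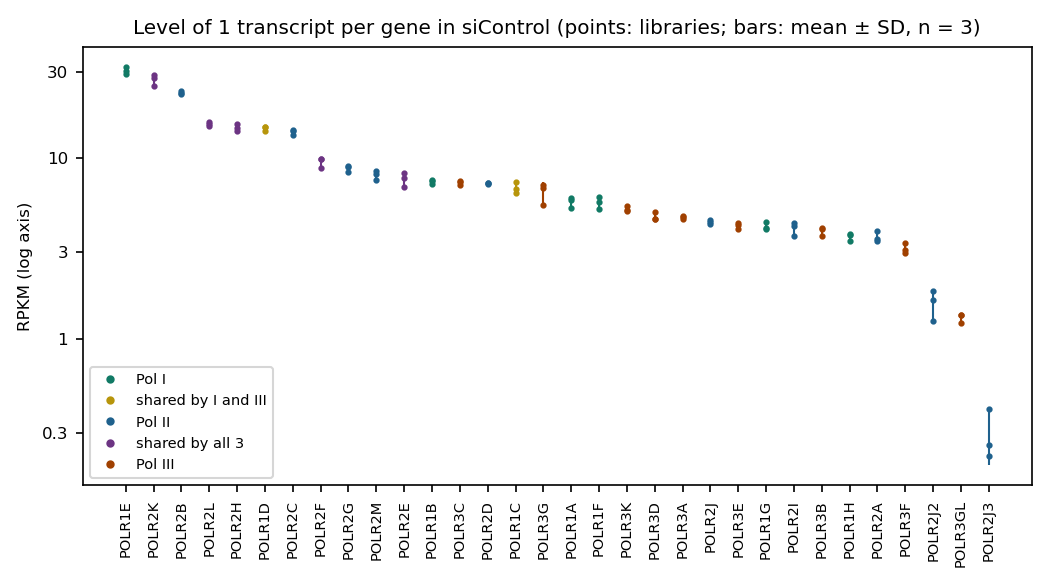
RPKM (y axis, log scale) of 1 transcript per gene in the 3 siControl libraries, ordered by their mean and coloured by polymerase, with bars for the SD, for the named members and without the POLR2J3 record listed at 0. The order runs from POLR1E at 30.3 to POLR2J3 at 0.30.

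Partners of the polymerases were read from the same fit in 5 lists with 83 genes, all of which passed the filter. After dyskerin knockdown 0 rose and 7 of the 83 fell with edgeR, beside 3.08% of all genes that rose and 3.32% that fell. DESeq2 passed 13 in either direction, among them SSU72 (0.22, adjusted p = 0.0043) and URI1 (0.29, adjusted p = 0.0035), which were higher. Both also passed as higher with edgeR when only their reference transcripts were counted (adjusted p = 0.0069 and 0.0039). After GAR1 knockdown 0 passed with edgeR and 1, PIH1D1, with DESeq2. Between the knockdowns 4 were lower in siDyskerin and 0 higher, beside 2.78% and 2.61% of all genes. At an unadjusted p under 0.05 stood 25 of the 83 after dyskerin knockdown, 10 after GAR1 knockdown and 19 between the knockdowns, beside 26.1%, 24.0% and 25.5% of all genes. The medians of the 83 were -0.05, 0.01 and -0.07. Of the 18 general transcription factors of Pol II, 0 passed with edgeR or DESeq2 in any comparison. Those past an unadjusted p of 0.05 numbered 3, 2 and 4, below or near the same shares of all genes. After dyskerin knockdown 5 of the 7 Pol I initiation factors and 8 of the 22 elongation factors were past it. So were 3 of the 17 Pol III factors and 6 of the 19 assembly and import genes.

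Of the 7 Pol I initiation factors, TAF1D, a subunit of the factor that recruits Pol I to its promoter, fell after dyskerin knockdown. It had 17805, 22108 and 22341 normalized counts in siControl, 13317, 15010 and 14079 in siDyskerin, and 25631, 23757 and 23261 in siGAR1, and the groups did not overlap. Its log2 fold change was -0.55 (standard error 0.08, edgeR adjusted p = 5.7e-04), and its difference from siGAR1 was -0.78 (adjusted p = 5.7e-05). TAF1D hosts small nucleolar RNAs in its introns, and from its protein-coding transcripts alone these values were -0.25 (adjusted p = 0.13) and -0.54 (adjusted p = 0.0038).

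Of the 22 elongation factors, SUPT4H1, a subunit of the elongation factor DSIF, fell by 0.45 after dyskerin knockdown (standard error 0.07, edgeR adjusted p = 0.0010), and it was also lower than in siGAR1, at -0.49 (adjusted p = 6.8e-04). NELFB, a subunit of the factor that pauses Pol II, fell by 0.40 after dyskerin knockdown (standard error 0.08, edgeR adjusted p = 0.0043). CCNT2, a cyclin of the kinase that releases Pol II from the pause, was lower in siDyskerin than in siGAR1 by -0.32 (standard error 0.07, adjusted p = 0.0066), with -0.20 against siControl (adjusted p = 0.065).

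Of the 17 Pol III factors, GTF3C4, a subunit of the factor that binds tRNA genes, fell by 0.43 after dyskerin knockdown (standard error 0.08, edgeR adjusted p = 0.0036). Its normalized counts were 2558, 2457 and 2520 in siControl, 1771, 1949 and 1881 in siDyskerin, and 2580, 2614 and 3158 in siGAR1, so that all siDyskerin libraries were lowest. The difference from siGAR1 was -0.58 (standard error 0.08, edgeR adjusted p = 6.0e-04). SNAPC1, of the complex that starts small nuclear RNA genes, fell by 0.40 after dyskerin knockdown (standard error 0.08, adjusted p = 0.0052).

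Of the 19 genes for assembly and nuclear import of the polymerases, PIH1D1 and RUVBL1 fell after dyskerin knockdown. Both belong to the chaperone complex that assembles Pol II and also box C/D and H/ACA ribonucleoproteins. PIH1D1 fell by 0.54 (standard error 0.09, edgeR adjusted p = 0.0010) and stood at -0.39 after GAR1 knockdown (edgeR adjusted p = 0.015), which passed with DESeq2 (adjusted p = 6.3e-04) and with its reference transcript only (edgeR adjusted p = 0.0062). RUVBL1 fell by 0.31 (standard error 0.07, edgeR adjusted p = 0.0082) and stood at -0.11 after GAR1 knockdown. With each of the 9 libraries left out in turn, NELFB no longer passed after dyskerin knockdown in 4 fits. SNAPC1 and GTF3C4 each no longer passed in 5 and RUVBL1 in 6. CCNT2 no longer passed between the knockdowns in 8 (edgeR adjusted p up to 0.037). The direction was kept in each case.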

How the data were processed

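Nuclear RNA was depleted of ribosomal RNA (RiboCop), made into stranded CORALL libraries and sequenced as paired ends. The authors trimmed reads with Trim Galore 0.6.4, used Bowtie2 2.4.1 to discard rRNA and tRNA reads, and deposited 1 table per library of expected counts and TPM values per transcript from Salmon 1.2.0 (library type ISR, sequence and position bias correction, GENCODE 27 on GRCh38). Expected counts were rounded and summed per gene here after matching transcripts by identifier to GENCODE 44, and 4514 of 200401 transcripts did not match and were left out. In 6 of 6 nested pairs of member transcripts the longer never had fewer reads than the shorter, and at least 99.9971% of the non-zero counts in each library were whole numbers. A read was therefore taken to be counted in every transcript it fits, and gene sums serve to compare groups and not genes. TPM entered only the alternative counts scaled by length.

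All 18444 genes kept by filterByExpr were fitted to the 9 libraries with edgeR 4.0.16 (trimmed mean of M values, factors 0.982 to 1.02, robust quasi-likelihood F-test, no covariate) in R 4.3.3. The common biological coefficient of variation was 0.0886, and this spread, more than counting error, limits the abundant members. Genes passed at a Benjamini-Hochberg adjusted p under 0.01 and were called with an absolute log2 fold change above 1 as well. Transcripts (108808) were fitted likewise. Counts are printed after scaling to the mean library, and errors are SD over 3 libraries. The fit was tested on simulated counts.

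Alternatives were DESeq2 1.42.0, relative log expression factors, no filter, length-scaled TPM counts, protein-coding or reference transcripts only, the compared groups only, no robust estimation, a replicate block and each library left out. Members that passed, the catalytic subunits and the POLR3G paralogs were to be given per library, as were up to 4 genes per partner list and up to 6 transcripts per gene. Per-library values of POLR1C, POLR1D and POLR1G and the transcripts of other members were added after their values were seen. The values of 1 member, which enters the counts and medians, are not reported here. Members and lists were chosen with earlier results of these data known.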

Additional observations from a re-analysis of the deposited data

Results flagged for a closer look

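The members and partners below differed between the knockdowns by the direct test of siDyskerin against siGAR1 (edgeR's quasi-likelihood test, adjusted p under 0.01), and each was lower in all 3 siDyskerin libraries than in all 3 siGAR1 libraries. For POLR2H the log2 difference was -0.57 and for TAF1D it was -0.78. It was -0.32 for CCNT2 (past the threshold in only 1 of the 9 fits with a library left out), -0.49 for SUPT4H1 and -0.58 for GTF3C4. Groups of 3 libraries were not tested for single libraries far from the rest.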

How the results depend on the processing

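POLR2H (siDyskerin against siControl and against siGAR1) and POLR1F (siDyskerin against siControl) kept their direction and stayed past the threshold in all alternatives, including each library left out, and no member was called in any. After GAR1 knockdown 2 members passed with DESeq2 and 1 with protein-coding transcripts only or with reference transcripts only, of the 32 and 30 members these leave. Between the knockdowns 5 passed with DESeq2, 4 without the filter, 2 with protein-coding or reference transcripts or the compared groups only, and 1 to 4 with 1 library left out. POLR1D reversed, from -0.27 to 0.10 (edgeR adjusted p = 0.44), when only its reference transcript was counted, by the different values of its transcripts, and stood at -0.13 (adjusted p = 0.37) with length-scaled TPM counts. Partners that passed after dyskerin knockdown numbered 13 with DESeq2 and 3 to 8 with 1 library left out. There were 3 without siDyskerin replicate 3 and 4 without siControl replicate 2 or 3 or siDyskerin replicate 1 or 2. After GAR1 knockdown there was 1 with DESeq2 and 0 to 1 with 1 library left out, and between the knockdowns 9 with DESeq2. Member transcripts passed after GAR1 knockdown numbered 0 to 7 with 1 library left out (0 without siGAR1 replicate 2, 7 without siGAR1 replicate 3). The cause of these moves was not tested.

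Equal replicate numbers did not clearly pair the libraries. Deviations from the group means correlated at -0.07 to 0.10 (median 0.04) between equal numbers and -0.10 to 0.06 (median -0.02) between others. These values do not settle whether there is weak pairing. With a replicate block 3 members passed between the knockdowns (POLR2H, POLR1C and POLR1G), 1 partner and 5 member transcripts passed after GAR1 knockdown, and the other counts stayed within 1.5 times. The 3 libraries per group limit what small changes can be seen.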
